A study of Homo sapiens with 3 samples.

Results

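The genes described are 10 of the Hippo signalling pathway, out of 18417 genes measured in HepG2, a cell line established from a human liver tumour. They comprise the effectors YAP1, WWTR1 and TEAD1, the kinase LATS2, the junction and adaptor proteins AMOTL1, AMOTL2 and AJUBA, and the target genes CCN1 (formerly CYR61), CCN2 (formerly CTGF) and ANKRD1. They were chosen by name, with earlier results of these data known. Every probe set that carried 1 of these symbols and no other was taken, which gave 1 probe set for each gene. The series held 3 Affymetrix arrays, hybridised with biotin-labelled material made from total RNA of cells grown in MEM medium. The control array was of untreated cells, the GO array of cells exposed to graphene oxide, and the rGO array of cells exposed to reduced graphene oxide, a form with fewer oxygen groups. Both exposures lasted 24 h, each at the EC20 of its material, the dose that a viability assay tied to a 20% effect. The labels state no concentration for either dose, so GO and rGO may have been given at different ones.

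The Hippo pathway is a kinase cascade that reads cell contact, cell shape and tension of the actin cytoskeleton. When it is active, the kinases LATS1 and LATS2 phosphorylate the coactivators YAP (encoded by YAP1) and TAZ (encoded by WWTR1), which are then held in the cytoplasm or degraded. When it is inactive, YAP and TAZ enter the nucleus and bind the TEAD transcription factors, which bring them to genes such as CCN1, CCN2 and ANKRD1. In the liver the pathway is known for restraining organ size and hepatocyte growth. The activity of YAP and TAZ is set largely by phosphorylation and location, which arrays of RNA do not measure.

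TEAD proteins read a short DNA core, GGAATG on one strand and CATTCC on the other, and this core was searched in the 250 bases before each start site in RefSeq's promoter windows (build GRCh38.p14). Windows were found for 8 of the 10 genes, 11 in all because WWTR1, AMOTL2 and AJUBA each had more than 1 start; CCN1 and TEAD1 had none there. The core was present in 5 of the 11 windows (45.5%), those of YAP1, AMOTL2, AJUBA, CCN2 and ANKRD1, and in 11.9% of all 35116 windows. The windows of 2 target genes are shown whole because they hold the core more than once while their RNA values lay on opposite sides of control. Sequences run 5′ to 3′ along the gene, and capitals mark the core.
CCN2, chr6:131951373-131951622, minus strand: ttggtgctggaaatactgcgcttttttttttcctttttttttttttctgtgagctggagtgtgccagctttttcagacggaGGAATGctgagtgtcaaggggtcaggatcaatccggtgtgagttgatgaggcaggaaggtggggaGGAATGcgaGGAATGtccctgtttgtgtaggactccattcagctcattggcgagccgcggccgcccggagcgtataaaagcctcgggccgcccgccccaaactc
ANKRD1, chr10:90921088-90921337, minus strand: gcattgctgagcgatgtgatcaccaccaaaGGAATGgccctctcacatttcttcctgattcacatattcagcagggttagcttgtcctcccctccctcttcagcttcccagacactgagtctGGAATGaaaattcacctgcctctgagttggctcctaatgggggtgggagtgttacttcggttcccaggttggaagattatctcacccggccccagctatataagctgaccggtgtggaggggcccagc

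CCN2 held 3 copies, whose first bases lay 169, 104 and 95 bases before the start site, with no overlap between them. Of all windows, 29 (0.0826%) held 3 or more. ANKRD1 held 2 copies, with first bases 220 and 128 bases before the start site, and 0.94% of all windows held 2 or more. The other 3 genes held 1 copy each, shown here with 12 bases on either side because these genes of the pathway's own machinery carry the core that the targets carry.
YAP1, chr11:102110273-102110302, plus strand: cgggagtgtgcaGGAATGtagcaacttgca
AMOTL2, chr3:134374499-134374528, minus strand: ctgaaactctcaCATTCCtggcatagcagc
AJUBA, chr14:22976884-22976913, minus strand: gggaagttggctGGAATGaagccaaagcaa

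The copy in YAP1 began 162 bases before the start site. Those of AMOTL2 and AJUBA, at 69 and 59 bases, belonged to 1 of the 2 starts listed for each gene. The AP-1 site (TGACTCA or TGAGTCA, both strands) and the CArG box read by SRF were present in 0 of the 11 windows, against 4.2% and 1.16% of all windows. With shares this low, 0 among 11 windows does not set these genes apart. A match is a description of letters only, and cores farther from the start were not searched.

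The arrays covered 33297 probe sets, and their median log2 values lay between 6.63 and 6.66. With 1 array per group no difference has an error from replicates and no test was possible, so values are given as differences of log2 values and counts are made by a fixed size of 1.5-fold (a log2 difference of 0.58). Where a yardstick is wanted, probe sets of the same gene disagreed by a robust SD of 0.0804 in GO minus control, 0.0539 in rGO minus control and 0.067 in GO minus rGO, over 365 genes; this measures the arrays and not the spread between cultures. Genes with a mean over the 3 arrays of at least 6.66 (the 40th percentile) passed a level filter, which left 11050, among them 9 of the 10 genes; AMOTL1 did not pass. The liver origin of the cells was visible in ALB, which encodes albumin, at 13.50, 13.49 and 13.57 in the control, GO and rGO arrays, and AFP, the fetal alpha-fetoprotein, at 13.06, 12.79 and 13.16. The 5 measured hepatocyte markers had mean log2 values of 12.03, 12.22 and 12.13 on these arrays and did not move together with GO, where TTR, the carrier transthyretin, stood at 0.70 (1.62-fold), APOA1, the main apolipoprotein of HDL, at 0.29 and AFP at -0.27. Their median difference was 0.25 with GO and 0.10 with rGO, and their part in the results was not tested. Of 5 measured leukocyte markers the defining PTPRC and CD3E lay at 4.77 or less on every array and CD14 did not pass the filter, whereas LYZ and CD68 passed. LYZ stood as high as 13.23, 13.43 and 13.38, and CD68 at 9.61, 9.98 and 9.51, in the control, GO and rGO arrays. Of 8 fibroblast, stellate and endothelial markers only COL1A1 and PDGFRB passed. The mean log2 values of these lists in the control, GO and rGO arrays were 7.51, 7.54 and 7.47 for leukocytes and 5.95, 5.90 and 5.84 for the others; their part in the results was not tested.

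In the GO array CCN1 and CCN2 were 1.96-fold and 1.74-fold higher than in untreated cells, and the coactivator genes YAP1 and WWTR1 were 1.40-fold and 1.36-fold higher. Of the 10 genes 9 were above control and 1, ANKRD1, was below, with a median log2 difference of 0.26, beside a median of 0.01 over all genes past the filter. Of all genes past the filter, 51.1% were above control with GO and 46.8% with rGO. In the rGO array the same 10 genes lay between -0.19 and 0.20 with a median of 0.05, beside -0.01 over all genes. The GO array gave the highest of the 3 values for 8 of the 10 genes, and for 43.9% of all genes past the filter. The 10 genes and the lists below were chosen with earlier results of these data known. Their shares and those of all genes are therefore not like for like. In RNA from a whole dish, a change in the share of one kind of cell and a change in RNA per cell cannot be told apart.

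**Figure D1:**
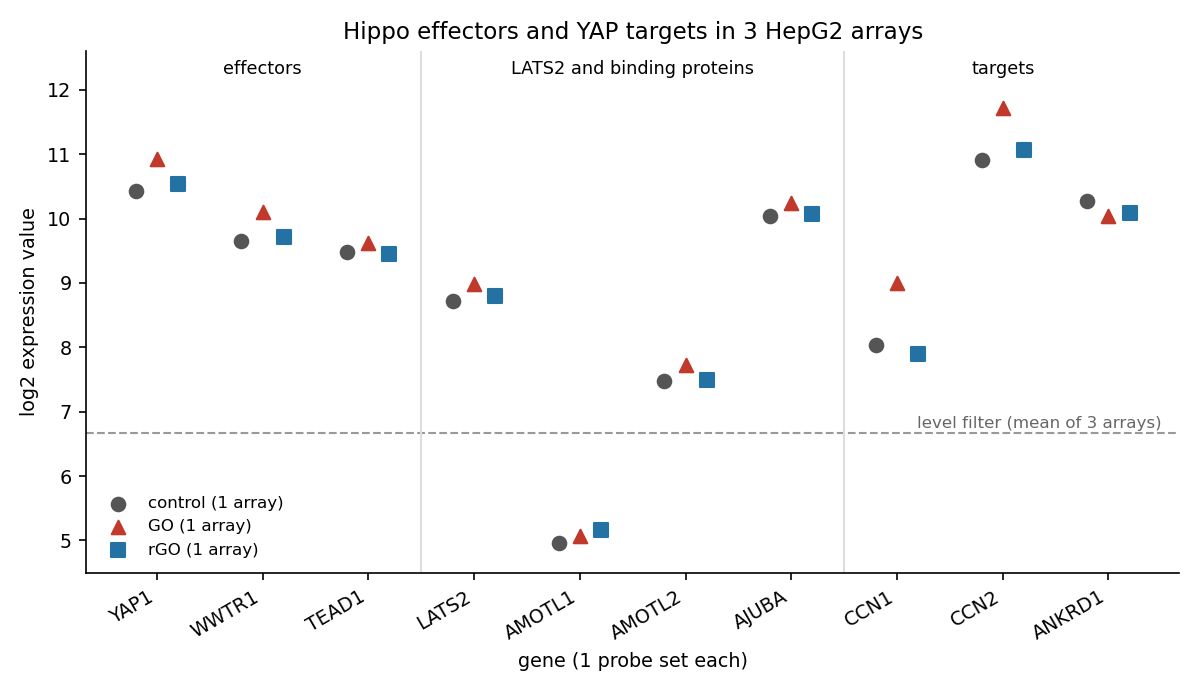
Log2 expression values (vertical axis) of the 10 genes in the control, GO and rGO arrays, 1 point per array; the dashed line is the level filter, and heights are not comparable between genes because each probe set has its own response. The GO point is the highest of the 3 for 8 genes, the exceptions being AMOTL1 and ANKRD1, and AMOTL1 lies under the filter.

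CCN1 encodes a secreted matricellular protein that binds integrins and is an immediate target of YAP and TEAD. Its log2 values were 8.04 (control), 9.00 (GO) and 7.89 (rGO). The GO array thus stood alone, with the rGO array slightly under the control. The difference was 0.97 in GO minus control and -0.14 in rGO minus control, and only 0.335% of genes past the filter had a GO difference as high. GO minus rGO was 1.11, or 2.16-fold, the one difference among the 10 genes that reached 2-fold; 0.262% of all genes were at least 2-fold higher in the GO than in the rGO array.

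CCN2 encodes the related protein known as connective tissue growth factor. It stood at 10.91 (control), 11.71 (GO) and 11.07 (rGO), so that both exposed arrays were above the control and the GO array was the higher. The differences were 0.80 with GO and 0.16 with rGO, and 0.570% of genes had a GO difference as high. CCN2 is the gene whose window above holds 3 TEAD cores.

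ANKRD1, a nuclear ankyrin repeat protein and a further standard readout of YAP, did not follow the CCN genes. It stood at 10.27 (control), 10.04 (GO) and 10.08 (rGO). Both exposed arrays lay under the control, with differences of -0.23 and -0.19, and they differed from each other by -0.04, less than the disagreement between probe sets. Its window above holds 2 TEAD cores. The rGO difference was among the lowest 7.94% of all genes, and the GO difference among the lowest 19.5%.

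Counted by size, 2 of the 10 genes, CCN1 and CCN2, were at least 1.5-fold higher in GO minus control, where 1.91% of all genes were, and 0 were at least 1.5-fold lower, where 4.23% of all genes were. In rGO minus control 0 genes passed in either direction, where 0.0271% of all genes were 1.5-fold higher and 0.127% lower. In GO minus rGO the same 2 genes passed on the higher side, with 1.82% of all genes, and 0 passed on the lower side, with 3.2%. At 2-fold the count in GO minus control was 0 in both directions, beside 0.253% of all genes higher and 0.914% lower. In rGO minus control 0 of the 10 genes and 0.0181% of all genes were 2-fold lower, and in GO minus rGO 0 of the 10 and 0.534% of all genes. Set against the disagreement between probe sets, 7 genes were above and 1, ANKRD1, was below control with GO by more than 2 times its size, where 25.4% of all genes were above and 25.7% below by as much. With rGO 2 genes, AMOTL1 and CCN2, were above control by as much and 2, CCN1 and ANKRD1, below. Of all genes 15.8% were above and 20.3% below, and the rGO counts are near those shares. The disagreement was taken from probe sets past the level filter, which AMOTL1 did not pass, so it may understate the noise of that gene. The GO and rGO comparisons share the 1 control array, so an error in that array enters both.

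**Figure D2:**
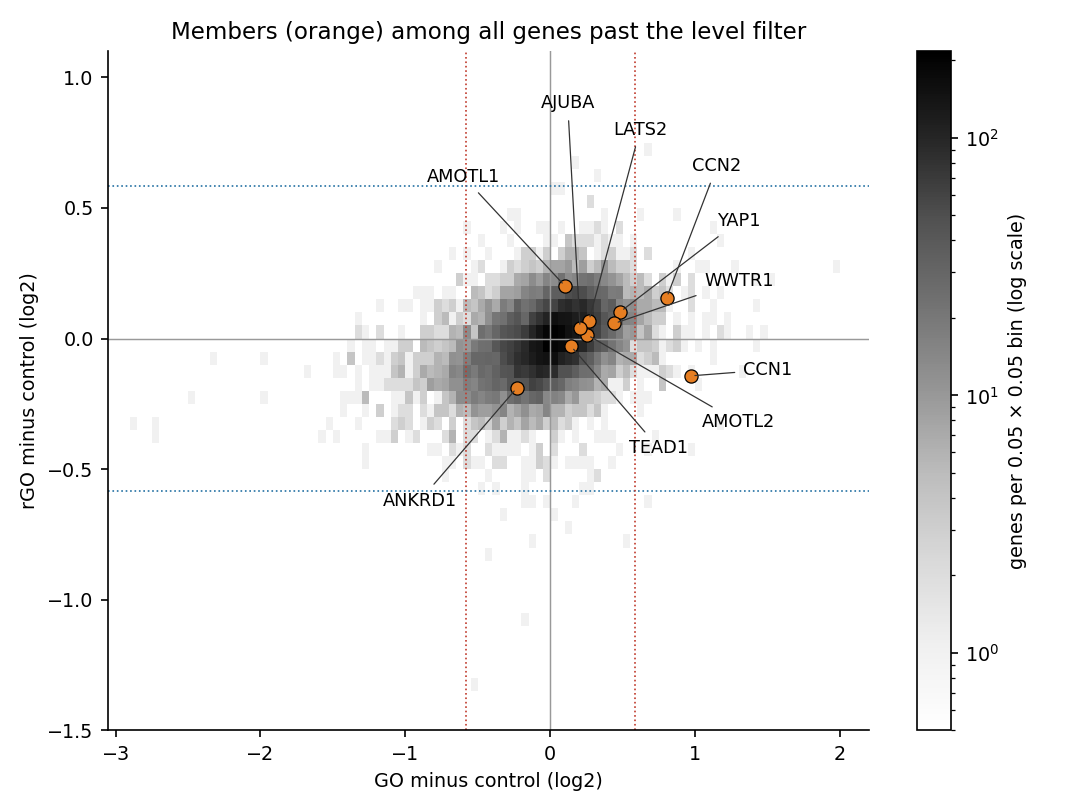
Log2 difference GO minus control (horizontal axis) against rGO minus control (vertical axis) for the 10 genes (orange) over the density of all 11050 genes past the level filter (grey, log scale); dotted lines mark 1.5-fold in each comparison. CCN1 and CCN2 lie to the right of the 1.5-fold line, YAP1 and WWTR1 short of it, and all 10 genes lie within 1.5-fold on the rGO axis; AMOTL1 is drawn although it is under the filter.

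The coactivators came next in size. YAP1 stood at 10.43 (control), 10.92 (GO) and 10.54 (rGO). Its paralog WWTR1 stood at 9.66, 10.10 and 9.72. For both genes the GO array was the highest and the rGO array lay between it and the control. The GO differences were 0.48 for YAP1 and 0.44 for WWTR1, values that 3.44% and 4.38% of all genes reached, and the rGO differences were 0.10 and 0.06. GO minus rGO was 0.38 for each, and neither gene reached 1.5-fold in any comparison.

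TEAD1, a DNA-binding partner of both coactivators, differed less between the arrays. It stood at 9.48 (control), 9.63 (GO) and 9.45 (rGO), with differences of 0.14 and -0.03. A GO difference as high was found in 27.8% of all genes, and the rGO difference was smaller than the disagreement between probe sets.

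LATS2, the kinase that phosphorylates YAP and TAZ and is itself a target gene of YAP, stood at 8.72 (control), 8.99 (GO) and 8.79 (rGO). The differences were 0.27 and 0.07, with the rGO array again between the other 2. AMOTL2, an angiomotin that binds YAP at cell junctions and is also a YAP target, stood at 7.48, 7.73 and 7.49. Its GO difference was 0.25, and its rGO difference of 0.01 turned to -0.01 after quantile normalization. AJUBA, a LIM domain protein that binds and restrains LATS kinases under tension, stood at 10.04, 10.24 and 10.07, with differences of 0.21 and 0.04. GO differences of these sizes were common, being reached by 13.6%, 14.8% and 20.02% of all genes.

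AMOTL1, the other angiomotin-like protein, stood at 4.97 (control), 5.07 (GO) and 5.17 (rGO). It was the only one of the 10 genes with its highest value in the rGO array. All 3 values were under the filter level, in the range where background signal weighs most, and the differences were 0.10 with GO and 0.20 with rGO.

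The paralogs of these genes were placed beside them. LATS1, the partner of LATS2, stood at 8.91, 9.07 and 9.08 in the control, GO and rGO arrays, so that its 2 exposed arrays were alike, with differences of 0.16 and 0.17. In the TEAD family, the differences with GO and rGO were 0.17 and 0.00 for TEAD3, -0.05 and -0.01 for TEAD4 and -0.18 and -0.25 for TEAD2. TEAD2 was thus under control in both exposures, where TEAD1 and TEAD3 were above it with GO. AMOT, the founding angiomotin, was under the filter, with 0.08 and -0.03. LIMD1 and WTIP, the relatives of AJUBA, had GO differences of 0.09 and -0.02 and rGO differences of 0.13 and 0.09.

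Of the other CCN genes only CCN5, which lacks the C-terminal domain of its relatives, passed the filter, at 7.42, 7.34 and 7.55, with differences of -0.09 and 0.13. CCN3, CCN4 and CCN6 were under it, with GO differences of 0.16, -0.13 and 0.04 and rGO differences of -0.05, -0.12 and -0.11. Within this family, CCN1 and CCN2 were the 2 genes past 1.5-fold with GO.

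**Figure D3:**
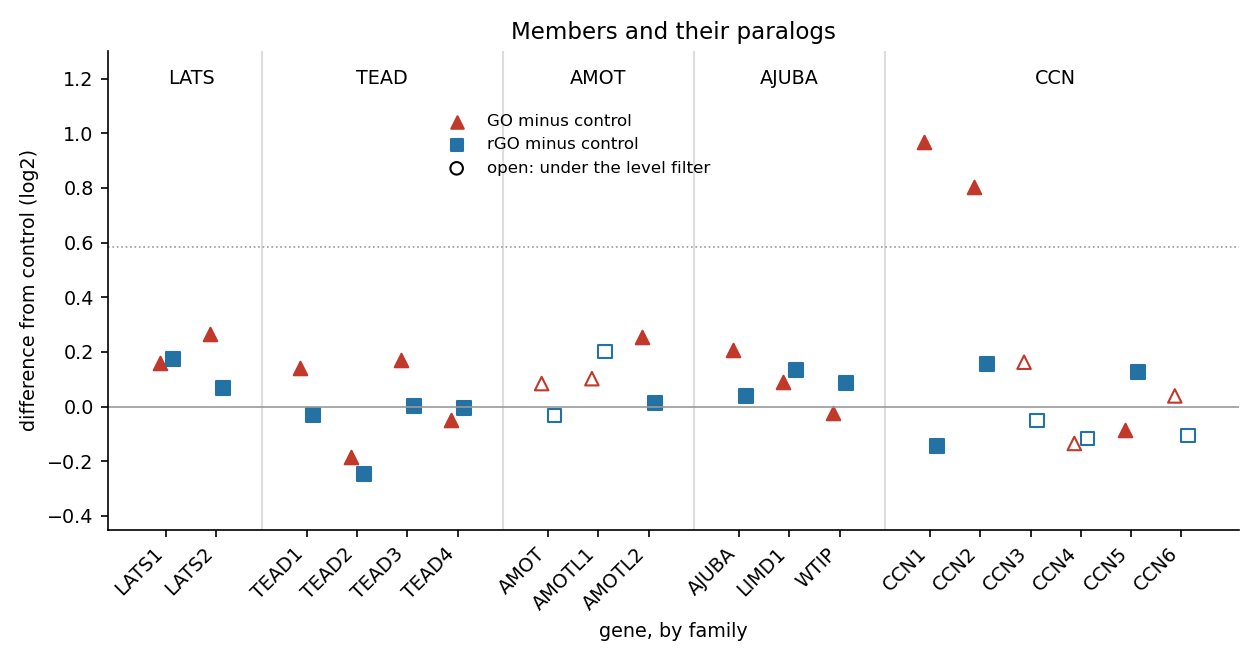
Log2 differences from control (vertical axis) for the LATS, TEAD, AMOT, AJUBA and CCN families (YAP1 and WWTR1 are not drawn), with GO as triangles and rGO as squares; open symbols are genes under the level filter and the dotted line is 1.5-fold. CCN1 at 0.97 and CCN2 at 0.80 with GO stand above the line, and every other point drawn lies between -0.25 and 0.27.

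The remaining genes of the pathway were read from lists. Their counts, and those of the lists after them, stand beside 51.1% of all genes past the filter above control with GO. With rGO that share was 46.8%. Of 14 measured genes of the kinase cassette and its activators, 7 were above and 7 below control with GO, and 0 reached 1.5-fold. The largest GO differences were those of MAP4K4, an upstream kinase that activates LATS (0.38), MOB1B, a LATS cofactor (0.36), and TAOK2, which activates the MST kinases (0.29), while its relative TAOK1 stood at -0.19. With rGO the largest were those of LATS1 (0.17) and TAOK1 (-0.17). The median was 0.01 with GO and 0.01 with rGO. Of 10 junction and polarity regulators past the filter, 6 were above control with GO and the median was 0.07. FAT1, an atypical cadherin of the pathway's receptor family, stood at 10.56, 11.15 and 10.70 in the control, GO and rGO arrays. Its GO difference of 0.58 lay just under the 1.5-fold size. Median centring raised GO minus control by 0.024 for every gene, which takes FAT1 past that size. RASSF1, a scaffold of the MST kinases, stood at 0.41 with GO and 0.26 with rGO, and the polarity protein LLGL1 at 0.15 and -0.06.

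Of 10 TEAD partners and members of the phosphatase complex that opposes the MST kinases, 4 were above and 6 below control with GO, with a median of -0.08. The catalytic subunit gene PPP2CA stood at -0.38 and the scaffold gene PPP2R1A at 0.36, so that 2 subunits of one phosphatase lay on opposite sides of control, and the complex member SIKE1 stood at -0.24. With rGO the largest differences were those of TEAD2 (-0.25) and PPP2CA (-0.19). Put together, the 34 pathway genes past the filter outside the 10 described were split evenly, 17 above and 17 below control with GO, and their median of 0.01 equalled that of all genes at 2 decimals. The even split depended on the scaling, since after quantile normalization or median centring 19 were above and 15 below control with GO. With rGO 19 were above and 15 below in the main setting.

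A separate list held 17 other genes widely used as YAP and TAZ targets. The 10 that passed the filter were all above control with GO, where 51.1% of all genes past the filter were. Their median was 0.28 and 0 reached 1.5-fold. After a loess correction 9 were above and 1 below. Over all 17 genes, 14 were above control with GO and the median was 0.21. NT5E, a cell surface enzyme that makes adenosine, had the largest difference at 0.51, with values of 8.30, 8.81 and 8.27 in the control, GO and rGO arrays. CRIM1, a transmembrane binder of BMP ligands, stood at 0.45 and PTPN14, a phosphatase that binds and restrains YAP, at 0.37. With rGO 4 of the 10 were above and 6 below control, the median was -0.03, and the largest differences were 0.22 for ASAP1, an activating protein for ARF GTPases, and -0.19 for the receptor kinase AXL.

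CCN1, CCN2 and ANKRD1 are also known to respond to actin dynamics through MRTF and SRF and to TGF-beta through SMADs, so short lists for both were set beside them. All 9 MRTF and SRF targets past the filter were above control with GO, where 51.1% of all genes past the filter were. Their median was 0.30 and 0 reached 1.5-fold. Among them CNN1, at 6.56, 6.85 and 6.64 in the control, GO and rGO arrays, was over the filter level in the GO array only. FHL2, at 6.65 in the control array, was just under that level there. Over all 10 measured genes of this list, under the filter or not, 10 were above control with GO and the median was 0.30. TAGLN, an actin binder of contractile cells, stood at 0.54, FHL2, a LIM domain cofactor, at 0.50 and TPM1, a tropomyosin, at 0.45. With rGO the median was 0.03, with 6 above and 3 below control, and FHL2 had the largest difference, 0.28. The 7 TGF-beta targets past the filter were divided with GO, from -1.06 for SMAD7, the inhibitory SMAD, and -0.42 for SKIL, a repressor of SMAD signalling, to 1.53 for BHLHE40, which many other stimuli induce too. Their median was 0.06. Whether the CCN values go with one of these inputs was not tested.

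**Figure D4:**
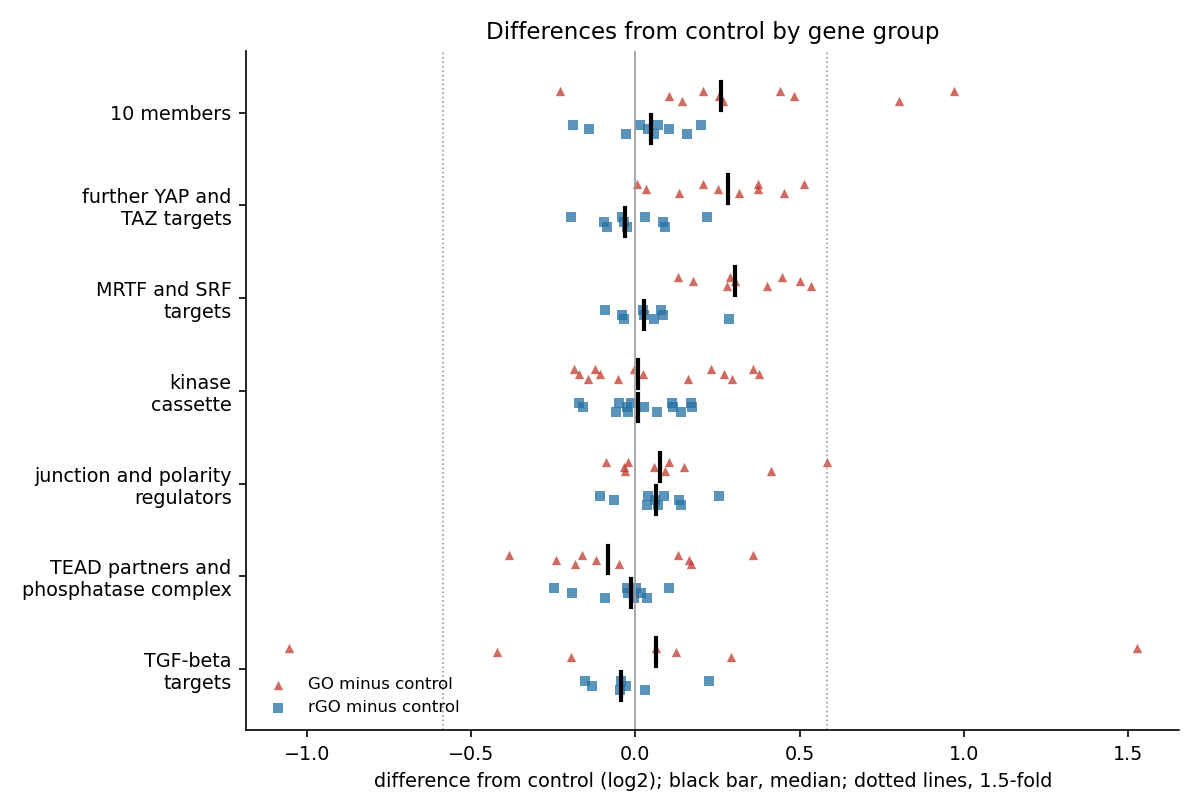
Log2 differences from control (horizontal axis) with GO (triangles) and rGO (squares) for the 10 genes and for the listed genes past the level filter, 1 point per gene; black bars are medians and dotted lines mark 1.5-fold. With GO the medians of the 10 genes, of the further YAP and TAZ targets and of the MRTF and SRF targets lie at 0.26, 0.28 and 0.30, while those of the 3 pathway lists lie between -0.08 and 0.07; the rGO medians of these 6 groups lie between -0.03 and 0.06.

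The genes most like CCN1 were those whose pair of differences, GO and rGO minus control over the 3 arrays, lay at the smallest Euclidean distance. They were the claudin CLDN6 (1.05 and -0.17, distance 0.0837), the phosphatase UBASH3B (0.88 and -0.13, distance 0.0898), the calcium binder S100A11 (0.92 and -0.02, distance 0.129), the small GTPase RAB3B (0.83 and -0.12, distance 0.139) and the focal adhesion protein TNS4 (1.03 and -0.01, distance 0.145). CCN2 was not among them. For WWTR1 the 5 nearest, at distances between 0.00677 and 0.0155, were the adhesion molecule NECTIN2, the kinase MAST4, the retinol saturase RETSAT, the adaptor PLEKHA6 and the chromatin regulator GATAD2A. Their GO differences lay between 0.43 and 0.45. With 3 arrays this likeness rests on 2 differences that share the control.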

How the data were processed

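RNA of HepG2 cells was measured on 3 arrays, 1 per group. The authors deposited log2 values for 33297 probe sets; per the submitters' processing notes RMA and MAS5 were used, with roles, versions and annotation not given in the sources used here. The near-equal distributions look normalised between arrays.

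Probe sets with 1 gene symbol in the platform annotation (19460; 1754 had several and 12083 none listed) were used, with 19429 matched to RefSeq by Entrez ID. A gene with several took the probe set with the highest mean; the 10 genes had 1 each. Differences were taken between single arrays without a test. Robust SDs are median absolute deviations scaled to a normal SD, and that between probe sets was further divided by the square root of 2. The genes, lists and sizes were chosen with earlier results of these data known. The rule named the 10 genes, their paralogs, the 3 largest GO and 2 largest rGO differences of each list, and the 5 nearest patterns, of which not every difference is printed; ALB, PTPRC and CD3E were added as defining markers. Listed genes without a probe set of 1 symbol were not analysed here. Alternatives were quantile normalization, median centring, loess (span 0.3), other filters (none, 60th percentile, the higher of the 2 arrays), averaged probe sets, a 2-fold size and means. The scripts were tested on simulated data. Python 3.11.15, numpy 2.4.6, pandas 2.3.3, statsmodels 0.14.6 and matplotlib 3.10.9 were used.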

Additional observations from a re-analysis of the deposited data

Results flagged for a closer look

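Of 49 genes looked at (the 10 described, their paralogs and the listed genes named by the rule), 3 had a GO and an rGO difference from control of opposite sign, each more than 2 times the disagreement between probe sets. That is 6.12% of the genes looked at, beside 3.94% of all genes past the filter (435 of 11050) that met the same rule. The listed genes were named for the size of these same differences, so the 2 shares are not like for like. With 1 array per group the difference between exposures was not tested, and the comparisons share the control array. CCN1 stood at 0.97 with GO and -0.14 with rGO, a GO minus rGO difference of 1.11. AXL, a receptor kinase listed among the further YAP and TAZ targets, stood at 0.31 and -0.19, with a difference of 0.51 between exposures. PDGFRB, a marker of stellate cells and fibroblasts, stood at 0.33 and -0.40, with a difference of 0.73; its values of 6.97, 7.30 and 6.57 in the control, GO and rGO arrays lay near the filter level of 6.66, and the rGO value was under it.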

How the results depend on the processing

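The values of the 10 genes were recomputed under 4 alternatives in each comparison. All 120 moved by less than the disagreement between probe sets, by at most 0.067, and 1 changed sign, AMOTL2 in rGO minus control (-0.01 after quantile normalization). One of the alternatives, averaging the probe sets of a gene, could not move these values, because each of the 10 genes had 1 probe set. The same holds for the medians and counts of the 10 genes. With means in place of medians the 10 genes gave 0.34 in GO minus control and 0.32 in GO minus rGO. At 2-fold in place of 1.5-fold the counts fell from 2 to 0 in GO minus control and from 2 to 1 in GO minus rGO. The median of the further YAP and TAZ targets in GO minus rGO was 0.33, and 0.26 with no level filter; in rGO minus control it went from -0.03 to 0.00 with a 60th percentile filter. The median of the other pathway genes in GO minus control went from 0.01 to -0.01 after the loess. Of 78 alternative values of medians and counts, 73 stayed within the disagreement between probe sets or, for counts, within 1.5 times, these 2 sign changes included. No array could be left out, and no paired analysis was possible because each group had 1 array. Signal near background limits AMOTL1.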
